A study of Mus musculus with 14 samples.

Results

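The 9 mouse genes described here serve the T-cell receptor and the development of T cells in the thymus: Cd3g, Zap70, Lat, Thy1, Bcl11b, Lef1, Dntt, Rag1 and Rag2. They were chosen by name, and the platform annotation gave 1 probe for each among the 7680 probes of the array, so 9 probes were followed, each with a value on all 14 arrays. The study compared 11 mouse cell lines with Universal Mouse Reference RNA, which is sold as a mixture of such lines, and its title asks which genes a given line contributes. Total RNA of 1 line was labelled with Cy5 and the Stratagene mouse reference with Cy3 on every array, with no exchange of dyes. There were 2 arrays for the myeloma, fibroblast and mammary tumor lines. There was 1 for the T-cell lymphoma, macrophage, skin, kidney, liver, testis, embryo fibroblast and myoblast lines, whose values therefore have no replicate check. The labels give no line name, clone, strain, genotype, treatment or age, and their short annotation speaks of primary tissue where the titles speak of cell lines. The reference on mammary tumor array 1 carried 3 further letters (MRR) in its label. Whether paired arrays stand for separate cultures is not given, so the p-values reflect array-to-array spread that may be technical.

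A T cell recognises antigen through a receptor whose signal is carried by the CD3 chains. The kinase Zap70 docks on the phosphorylated chains and phosphorylates the adaptor Lat, on which further signalling proteins gather. In the thymus the receptor genes are assembled by the Rag1 and Rag2 recombinase, terminal transferase (Dntt) adds nucleotides at the joints, and the transcription factors Bcl11b and Lef1 serve the commitment to the T lineage and the later steps. Thy1 is a surface glycoprotein of mouse thymocytes and T cells that fibroblasts and neurons can also carry. Rag1, Rag2 and Dntt are used by early B cells as well, and plasma cells have left that stage behind.

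Promoter sequences are shown for the 4 genes with a single listed start that stood highest in the T-cell lymphoma line (Cd3g, Lat, Bcl11b, Dntt) and for the neighbouring recombinase genes Rag1 and Rag2, which did not. They span 250 bases before to 50 after the start, 5′ to 3′, from RefSeq on GRCm38.p6, where 8 of the 9 genes matched. Capitals mark matches on either strand to motifs of 6 bases. The RUNX motif was TGTGGT. The motif of Lef1 and its relatives, called TCF/LEF here, was CTTTGA. The GATA motif was spelled AGATAA. An E-box was taken as CAGGTG. The ETS motif was searched as AGGAAG. The TATA box was searched as TATAAA.
Cd3g promoter, chr9:44980382-44980681, minus strand: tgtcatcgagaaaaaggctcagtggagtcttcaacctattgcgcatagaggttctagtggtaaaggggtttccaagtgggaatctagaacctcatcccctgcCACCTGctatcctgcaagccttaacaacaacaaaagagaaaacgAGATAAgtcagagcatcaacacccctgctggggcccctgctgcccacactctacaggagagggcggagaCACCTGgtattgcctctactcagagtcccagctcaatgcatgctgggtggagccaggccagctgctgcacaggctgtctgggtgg
Lat promoter, chr7:126369519-126369818, minus strand: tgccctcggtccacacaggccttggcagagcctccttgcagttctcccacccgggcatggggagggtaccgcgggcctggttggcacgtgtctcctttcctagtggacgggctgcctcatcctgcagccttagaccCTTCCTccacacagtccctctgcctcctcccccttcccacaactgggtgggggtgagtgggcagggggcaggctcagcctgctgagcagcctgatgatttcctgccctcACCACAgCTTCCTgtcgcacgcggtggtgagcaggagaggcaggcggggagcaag
Bcl11b promoter, chr12:108003365-108003664, minus strand: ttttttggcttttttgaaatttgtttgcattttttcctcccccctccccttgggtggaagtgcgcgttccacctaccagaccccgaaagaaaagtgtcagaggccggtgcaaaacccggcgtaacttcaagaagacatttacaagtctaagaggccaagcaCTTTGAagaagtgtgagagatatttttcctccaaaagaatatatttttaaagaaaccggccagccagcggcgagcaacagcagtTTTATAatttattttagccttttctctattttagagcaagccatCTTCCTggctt
Dntt promoter, chr19:41029025-41029324, plus strand: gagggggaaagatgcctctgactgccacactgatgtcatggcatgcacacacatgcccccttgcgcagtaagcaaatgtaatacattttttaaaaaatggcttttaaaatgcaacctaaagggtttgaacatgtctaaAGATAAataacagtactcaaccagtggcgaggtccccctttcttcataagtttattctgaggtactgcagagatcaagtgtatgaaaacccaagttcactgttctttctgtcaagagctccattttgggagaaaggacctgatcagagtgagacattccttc
Rag1 promoter, chr2:101649483-101649782, minus strand: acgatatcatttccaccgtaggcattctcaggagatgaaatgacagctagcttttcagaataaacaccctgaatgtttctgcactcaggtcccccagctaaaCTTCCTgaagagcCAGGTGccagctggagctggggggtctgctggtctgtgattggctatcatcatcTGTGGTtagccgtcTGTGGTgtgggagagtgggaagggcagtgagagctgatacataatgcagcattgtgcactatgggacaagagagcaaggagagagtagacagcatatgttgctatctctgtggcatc
Rag2 promoter, chr2:101624462-101624761, plus strand: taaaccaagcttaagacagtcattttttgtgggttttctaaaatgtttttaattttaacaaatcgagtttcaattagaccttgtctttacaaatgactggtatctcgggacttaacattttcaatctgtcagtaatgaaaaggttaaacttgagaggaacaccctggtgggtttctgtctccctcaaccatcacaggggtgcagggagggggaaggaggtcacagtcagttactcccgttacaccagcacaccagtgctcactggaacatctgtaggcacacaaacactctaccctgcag

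The Cd3g window held a GATA motif at -104 and E-boxes on the other strand at -148 and -35, counted from the start to the first base of the match. The Lat window held ETS motifs on the other strand at -114 and 3 and a RUNX motif on the other strand at -5. In the Bcl11b window a TCF/LEF motif lay at -89, with a TATA box at -5 and an ETS motif at 40 on the other strand. Dntt had a GATA motif at -112 and no other match. Rag1 had RUNX motifs at -81 and -67, an E-box at -135 and an ETS motif on the other strand at -148, and the Rag2 window had none of the 6. The 8 genes have 13 such windows, since Zap70 has 3 listed starts and Lef1 has 4. Of these 13 windows the RUNX, TCF/LEF and GATA motifs each lay in 3, the E-box in 5, ETS in 6 and TATA in 2. Of all 32851 promoter windows of this length 16.8% held the RUNX, 16.0% the TCF/LEF, 11.2% the GATA, 20.2% the E-box, 35.4% the ETS and 13.6% the TATA motif. These matches describe letters only.

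Values are log2 ratios of line over pool, so that 0 is the level of the pool and 1 is a doubling. Direction was judged from the values, and base 2 was assumed. In 1 limma fit over 7423 features each line was set against the other 10, weighted equally, and calls were made where p after Benjamini-Hochberg adjustment was under 0.05. Errors after a difference are standard errors of that fit, whose spread comes from the 3 lines with 2 arrays. Array medians ran from -0.50 (embryo fibroblast) to 0.13 (skin), and that of the kidney array was -0.40. Pearson's r between the arrays of a line was 0.668 for mammary tumor, 0.684 for myeloma and 0.384 for fibroblast, across probes, which are not independent replicates. The T-cell lymphoma, embryo fibroblast and kidney arrays and fibroblast array 1 had image numbers that ran together, which puts 3 other arrays in the run of the T-cell lymphoma array.

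The T-cell lymphoma line was the highest of the 11 lines for 7 of the 9 genes: Cd3g, Zap70, Lat, Thy1, Bcl11b, Lef1 and Dntt. Over all features this line was the highest in 20.4%. With each array centred on its median, the embryo fibroblast line was the higher one for Thy1. Against the mean of the other lines 6 of the 9 genes were called higher and 0 lower, where 2.22% of all features were called higher and 2.36% lower. Dntt lay outside the threshold, and Rag1 and Rag2 differed from the other lines by less than their intervals. The median difference of the 9 genes was 3.65, beside 0.12 over all features. Against only the 3 other arrays of its image run the difference was 4.61 for Cd3g, 5.96 for Lat, 5.22 for Zap70, 3.69 for Thy1, 3.83 for Bcl11b, 3.51 for Lef1 and 2.98 for Dntt, but 0.47 for Rag1 and -0.05 for Rag2. In RNA of a whole culture, fewer expressing cells and less RNA per cell cannot be told apart.

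**Figure D1:**
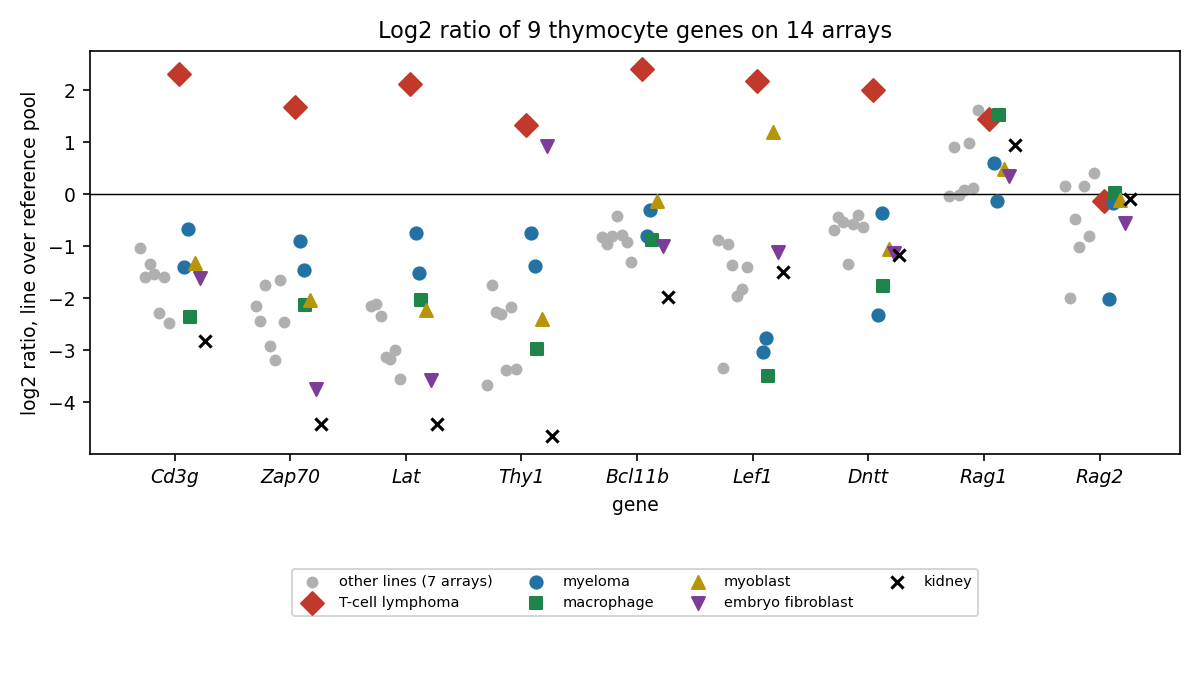
Log2 ratio of line over reference pool (y axis) for the 9 genes (x axis) on 14 arrays, 1 point per array, with colours for 6 lines and grey for the other 7 arrays. The T-cell lymphoma array stood above all 13 other arrays for 7 genes, with Thy1 in the embryo fibroblast line and Lef1 in the myoblast line above 0 as well, while the arrays overlapped for Rag1 and Rag2.

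Cd3g encodes the gamma chain of CD3, which carries the receptor's signalling motif. Its log2 ratio was 2.31 in T-cell lymphoma. In the other 10 lines the line means ran from -2.82 (kidney) over a median of -1.60 to -1.03 (myeloma). The T-cell lymphoma array was the only 1 of 14 above 0, and no other array came near it. The paired arrays read -1.39 and -0.67 in the myeloma line, -1.04 and -1.33 in the mammary tumor line and -2.48 and -1.53 in the fibroblast line. The difference from the other lines was 4.09 ± 0.48 (17.0-fold, limma adjusted p = 0.0163). No neighbours among the other 10 lines differed beyond 2 standard errors.

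Zap70, the kinase that binds the phosphorylated CD3 chains, read 1.68 in T-cell lymphoma. The other lines ran from -4.41 (kidney) over a median of -2.28 to -1.17 (myeloma). Its paired arrays read -0.89 and -1.45 (myeloma), -2.14 and -1.74 (mammary tumor), and -2.45 and -2.92 (fibroblast). All 13 other arrays lay below the pool, and the groups did not overlap. The difference was 4.22 ± 0.40 (18.6-fold, limma adjusted p = 0.0114).

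Lat, the membrane adaptor that Zap70 phosphorylates, read 2.12 in the T-cell lymphoma line. Elsewhere it ran from -4.41 (kidney) over a median of -2.62 to -1.13 (myeloma). The paired arrays read -0.75 and -1.52 (myeloma), -2.15 and -2.33 (mammary tumor), and -3.54 and -3.12 (fibroblast). Again no other array reached the level of the pool. The T-cell lymphoma line stood 4.84 ± 0.41 above the other lines (28.6-fold, limma adjusted p = 0.0114).

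For each of these 3 signalling genes the myeloma line came second. The T-cell lymphoma line exceeded it by 3.34 ± 0.56 for Cd3g, 2.85 ± 0.47 for Zap70 and 3.26 ± 0.49 for Lat. Compared with the 9 lines left when the T-cell lymphoma line was taken out, an alternative chosen after the values were seen, the myeloma line was higher for Lat by 1.76 ± 0.31 (limma adjusted p = 0.0191) and for Zap70 by 1.52 ± 0.30 (limma adjusted p = 0.0288). In that comparison 3.77% of all features were called higher. With the T-cell lymphoma line among the others, the differences were 1.26 for Lat (limma adjusted p = 0.0613) and 1.08 for Zap70 (limma adjusted p = 0.0856). With the array number as a block both passed (limma adjusted p = 0.0369 and 0.0451). The share of all features called in the myeloma line with that block is not given here. Of 14 alternatives Lat passed in 4 and Zap70 in 2. The step from the myeloma line to the next line stayed within 2 standard errors for both genes. It was 0.89 ± 0.49 for Lat (macrophage) and 0.47 ± 0.47 for Zap70 (skin). Both myeloma arrays lay above the arrays of all other lines besides T-cell lymphoma for Zap70 and Lat.

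Thy1 was shared with a line that is not of blood. Its log2 ratio was 1.33 in T-cell lymphoma and 0.93 in the embryo fibroblast line, a difference of 0.40 ± 0.84 with a 95% interval from -1.61 to 2.41. The other 9 lines lay between -4.64 (kidney) and -1.06 (myeloma), and the embryo fibroblast line stood 2.00 ± 0.73 above the myeloma line. The fibroblast line, in contrast, read -3.36 and -2.29 on its arrays, and the skin line read -2.17. Paired arrays read -0.75 and -1.38 (myeloma) and -3.66 and -2.27 (mammary tumor). Thy1 was thus above the pool on 2 of 14 arrays. Against the other 10 lines the T-cell lymphoma line was higher by 3.65 ± 0.62 (12.6-fold, limma adjusted p = 0.0282). This call ended with quantile normalization (limma adjusted p = 0.0559), without myeloma array 1 (limma adjusted p = 0.0522) and without myeloma array 2 (limma adjusted p = 0.0575). The embryo fibroblast line was higher by 3.22 (limma adjusted p = 0.0557), and by 3.62 ± 0.62 against the 9 lines without T-cell lymphoma (limma adjusted p = 0.0474), where 0.377% of all features were called higher. The array of that line had the lowest median of all. With each array centred on its median, Thy1 read 1.44 in the embryo fibroblast line and 1.35 in T-cell lymphoma, so these lines changed places. The embryo fibroblast difference passed in 8 of 14 alternatives, among them centring each array on its median (3.65, limma adjusted p = 0.0497) and the array number as a block (3.31, limma adjusted p = 0.0200). The share of all features called in that line with the block is not given here.

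Bcl11b encodes a zinc-finger factor needed for commitment to the T lineage. It read 2.41 in T-cell lymphoma and ran from -1.96 (kidney) over a median of -0.87 to -0.13 (myoblast) in the others. Apart from the kidney line, the other lines lay within about 1 log2 unit of each other. The paired arrays read -0.79 and -0.29 (myeloma), -0.81 and -0.80 (mammary tumor), and -1.30 and -0.42 (fibroblast). The difference was 3.29 ± 0.43 (9.77-fold, limma adjusted p = 0.0170), and the T-cell lymphoma line exceeded the myoblast line by 2.53 ± 0.59.

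Lef1 is a DNA-binding partner of beta-catenin in Wnt signalling. It read 2.18 in T-cell lymphoma and 1.19 in the myoblast line, and was below the pool in all other lines. The difference between these lines was 0.99 ± 0.46, with a 95% interval from -0.09 to 2.08. Next came the mammary tumor line, at -0.89 and -0.96 on its arrays, 2.11 ± 0.39 below the myoblast line. At the low end stood the myeloma line, with -3.03 and -2.77, the liver line with -3.35 and the macrophage line with -3.48. The step from the testis line (-1.95) down to the myeloma line was 0.95 ± 0.39.

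When each of the other lines was set against its remaining 10, the only calls among the 9 genes were 3 of Lef1. All features called in either direction made up 6.7% in the myeloma line, 4.07% in macrophage, 2.21% in embryo fibroblast, 1.23% in fibroblast, 0.862% in mammary tumor, 0.795% in myoblast, 0.35% in testis, 0.0135% in liver, 0.0135% in kidney and 0% in skin. Lef1 was higher in the myoblast line by 2.81 ± 0.33 (limma adjusted p = 0.0308; 0.552% of features called higher there). It was lower in the myeloma line by -1.69 ± 0.25 (limma adjusted p = 0.0113; 3.41% called lower) and in the macrophage line by -2.33 ± 0.33 (limma adjusted p = 0.0190; 2.13% called lower). The low end was not confined to blood-cell lines, since the liver line lay 0.14 ± 0.46 above the macrophage line and differed from the other lines by -2.18 ± 0.34 (limma adjusted p = 0.160). In the T-cell lymphoma line it was higher by 3.90 ± 0.34 (limma adjusted p = 0.0114). The myoblast call ended without any of the mammary tumor or myeloma arrays (limma adjusted p from 0.0719 to 0.0832), the myeloma call without myeloma array 1 or 2 (limma adjusted p = 0.0941 and 0.0959), and the macrophage call without mammary tumor array 1 or 2 (limma adjusted p = 0.0611 and 0.0631). Quantile normalization also ended the myeloma and macrophage calls (limma adjusted p = 0.0531 and 0.188), and the image run as a block the myoblast call (limma adjusted p = 0.0527). With the T-cell lymphoma line taken out of the mean, the 3 differences were 3.23 in the myoblast line (0.525% of features called higher), -1.31 in the myeloma line (4.2% lower) and -1.96 in the macrophage line (2.36% lower), all called (limma adjusted p = 0.0263, 0.0255 and 0.0286).

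**Figure D2:**
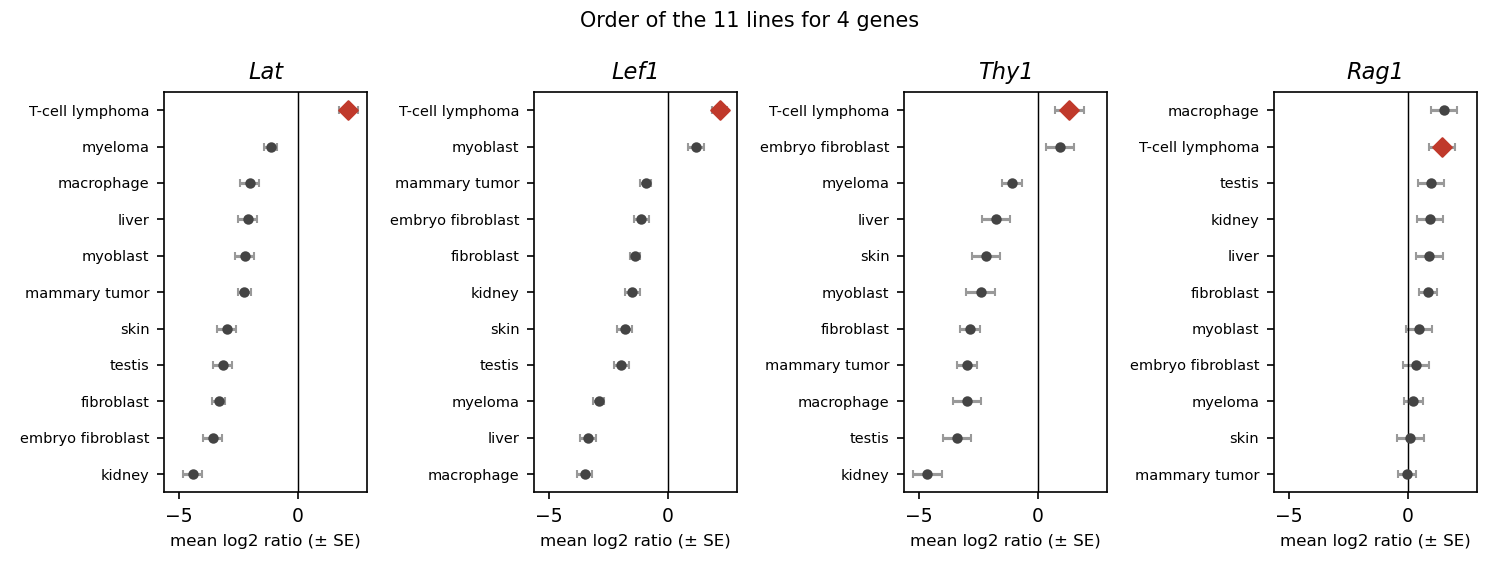
Mean log2 ratio of line over pool (x axis, ± standard error of the fit) for the 11 lines in the order of their level (y axis), shown for Lat, Lef1, Thy1 and Rag1, with the T-cell lymphoma line as a red diamond. Lat stood alone in T-cell lymphoma, Lef1 was followed by the myoblast line and Thy1 by the embryo fibroblast line, and Rag1 showed no step between neighbouring lines beyond 2 standard errors.

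The genes of receptor gene assembly did not behave alike. Dntt, the polymerase that adds nucleotides without a template, read 2.00 in the T-cell lymphoma line and was below the pool on all 13 other arrays. Its line means elsewhere ran from -1.75 (macrophage) over a median of -1.02 to -0.40 (skin). The arrays of the myeloma line lay far apart, at -2.32 and -0.36, against -0.68 and -0.54 in the mammary tumor line and -0.63 and -1.35 in the fibroblast line. The difference of 2.94 ± 0.68 (95% interval 1.33 to 4.56) did not pass the threshold (limma adjusted p = 0.0612). It passed without myeloma array 1 (limma adjusted p = 0.0373) and without myeloma array 2 (limma adjusted p = 0.0382), where the myeloma pair no longer enters the spread, and with the array number as a block (3.01 ± 0.64, limma adjusted p = 0.0321).

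Rag1, the subunit that cuts DNA at the receptor genes, read 1.44 in T-cell lymphoma and 1.52 in the macrophage line. Fibroblast array 1 read 1.61, the highest of all, and fibroblast array 2 read 0.092. Testis (0.99), kidney (0.95) and liver (0.91) followed, and the lowest line was mammary tumor (-0.029 and -0.021). Rag1 lay above the pool on 11 of 14 arrays, so the lines overlapped throughout. The T-cell lymphoma line differed from the others by 0.80 ± 0.58, with a 95% interval from -0.57 to 2.18 (limma adjusted p = 0.429).

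Rag2, the partner subunit of Rag1, read -0.12 in the T-cell lymphoma line, at rank 5 of the 11 lines. The others ran from -2.00 (liver) over a median of -0.23 to 0.16 (testis). Here too the pairs disagreed: -2.00 and -0.18 in the myeloma line, 0.40 and -1.01 in the fibroblast line, and 0.16 and -0.48 in the mammary tumor line. The difference was 0.37 ± 0.75, with a 95% interval from -1.43 to 2.16 (limma adjusted p = 0.782). With these intervals a difference of several-fold in either recombinase gene would not have been resolved.

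Comparisons were also made with each of the other blood-cell lines. Compared with the myeloma line, 4 of 9 genes were called higher and 0 lower, where 0.539% of all features were called higher and 0.903% lower: Lef1 by 5.08 ± 0.39 (limma adjusted p = 0.00984), Cd3g by 3.34 (0.0477), Lat by 3.26 (0.0377) and Zap70 by 2.85 (0.0472). Bcl11b (2.95 ± 0.51, 0.0530), Dntt (3.34 ± 0.80, 0.113) and Thy1 (2.40 ± 0.73, 0.185) did not pass. With the array number as a block Bcl11b passed as well (3.18 ± 0.42, limma adjusted p = 0.0227). Compared with the macrophage line, 5 of 9 were called higher and 0 lower, where 0.97% of all features were called higher and 1.05% lower: Lef1 by 5.67 ± 0.46 (limma adjusted p = 0.0119), Cd3g by 4.66 ± 0.65 (0.0295), Lat by 4.14 ± 0.56 (0.0293), Zap70 by 3.81 ± 0.55 (0.0295) and Bcl11b by 3.29 ± 0.59 (0.0487). Thy1 (4.31 ± 0.84, 0.0609) and Dntt (3.75 ± 0.92, 0.0976) did not pass. With that block Thy1 passed (limma adjusted p = 0.0244). Rag1 (-0.08 ± 0.78) and Rag2 (-0.15 ± 1.02) were close to the macrophage line, with wide errors. Both comparisons use the same T-cell lymphoma array. The counts of 4 and 5 each became 1, Lef1, with quantile normalization and without either mammary tumor array. Leaving out myeloma array 1 they also became 1, and without myeloma array 2 they became 0 and 1. The Zap70 call against the myeloma line ended with the image run as a block as well (limma adjusted p = 0.0762).

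**Figure D3:**
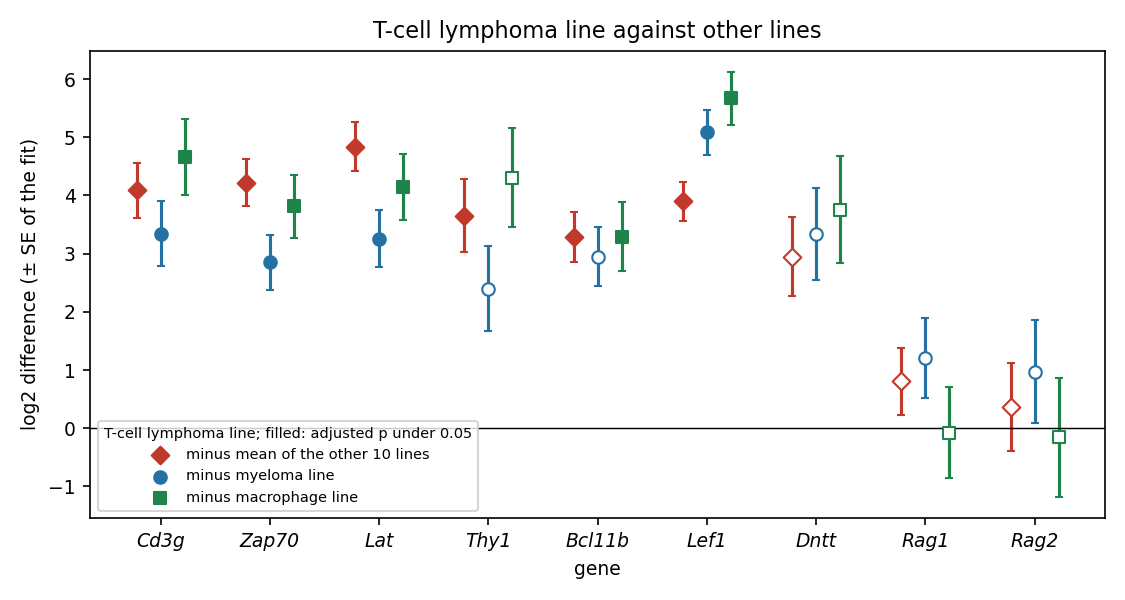
Log2 difference between the T-cell lymphoma line and the mean of the other 10 lines (red), the myeloma line (blue) and the macrophage line (green) for the 9 genes, with the standard error of the fit as bars and filled symbols for a limma adjusted p under 0.05. Differences lay between 2.40 and 5.67 for the first 7 genes and between -0.15 and 1.21 for Rag1 and Rag2.

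The ratios also describe how much of a transcript in the pool each line could account for. If the lines had entered in equal parts, the share of a line in the sum of the 11 unlogged ratios would be its share of the pooled transcript, and a gene spread evenly would give 9.09%. The T-cell lymphoma line held 70.4% of the sum for Lat, 61.4% for Cd3g and 60.8% for Zap70. A share over 50% was found for 3 of the 9 genes and for 0.337% of all features (25 of 7423), and the median over all features was 9.00%. For Bcl11b the share was 48.4%, with the myoblast line next at 8.36%. For Lef1 it was 48.2%, with 24.2% in the myoblast line, and for Thy1 it was 40.9%, with 31.1% in the embryo fibroblast line. Dntt stood at 42.5%, with the skin line next at 8.08%. Rag1 (14.2%) and Rag2 (10.7%) were spread over the lines, with 15.0% of Rag1 in the macrophage line. Leaving out single arrays of the paired lines moved the share of Lat between 68.8% and 71.7%, and centring the arrays gave 69.6%. For Thy1 centring gave 36.3%, and the embryo fibroblast line then held a larger share than the T-cell lymphoma line. These shares rest on the ratio being line over pool. With the sign of every ratio turned, the T-cell lymphoma share would be 0.286% for Lat, 0.543% for Cd3g and 0.423% for Zap70, with the largest share in the kidney line for all 3. The mean of the unlogged ratios, which equal parts would set at 1, was 0.562 for Lat, 0.734 for Cd3g, 0.480 for Zap70 and 0.559 for Thy1. It was 0.996 for Bcl11b and 1.74 for Rag1. With the sign turned it was 7.30 for Lat, 3.37 for Cd3g and 6.69 for Zap70. The means thus lay further from the value for equal parts in some genes than in others. Whether the parts were unequal was not tested.

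**Figure D4:**
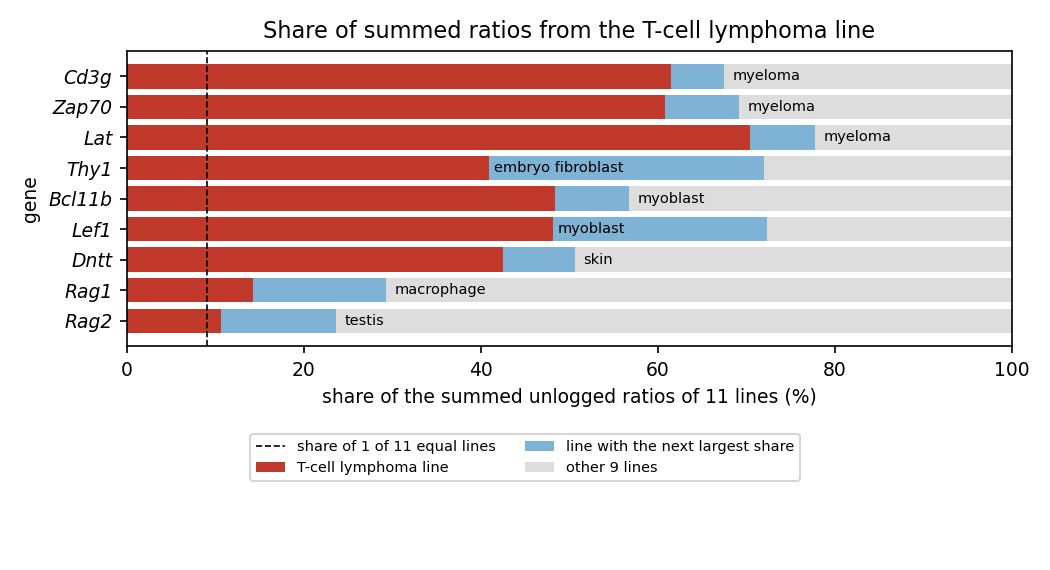
Share of the summed unlogged ratios of 11 lines (x axis, percent) for the 9 genes (y axis), with the T-cell lymphoma line in red, the line with the next largest share in blue and named, and the other 9 lines in grey. The red bar reached 70.4% for Lat and 10.7% for Rag2, against 9.09% (dashed line) for 1 of 11 equal lines.

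At the other end, the kidney line was the lowest of the 11 for 5 of the 9 genes (Cd3g, Zap70, Lat, Thy1 and Bcl11b) and for 16.7% of all features. Its differences from the other lines were -2.91 for Thy1, -2.48 for Zap70, -2.35 for Lat, -1.55 for Cd3g and -1.52 for Bcl11b, and none passed (limma adjusted p from 0.0877 to 0.193). With the array number as a block Lat, Zap70 and Thy1 passed there (limma adjusted p = 0.0332, 0.0309 and 0.0446), and so did a lower Zap70 in the embryo fibroblast line (-1.79 ± 0.37, limma adjusted p = 0.0315). The share of all features called in these lines with that block is not given here. In the T-cell lymphoma line that block raised the calls over all features from 340 to 960. Without that block, 1 of 7423 features was called in the kidney line, and 1288 had an unadjusted p under 0.05. The median difference over all features in the kidney line was -0.27.

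Likeness of pattern was measured as Pearson's r over the 11 line means against 6611 named probes, and again without the T-cell lymphoma line (10 lines); the lines share the reference and the array. Lat was most like Dpp4, which encodes the T-cell surface peptidase CD26 (r = 0.980, and 0.983 without the T-cell lymphoma line), and then Zfp87 (0.962 and 0.906). Zap70 was most like Izumo1r (0.980 and 0.948) and the dipeptidase gene Dpep1 (0.971 and 0.944). Cd3g and Bcl11b were each among the closest to the other (0.954 and 0.712), and both were close to Rora, a nuclear receptor gene (0.944 and 0.751 with Cd3g, 0.969 and 0.876 with Bcl11b). Dntt was most like Aox3 (0.932 and 0.873) and Nr4a2 (0.928 and 0.742). The closest to Lef1 were Zfp74 (0.907 and 0.901) and Chst2 (0.881 and 0.887), and the closest to Thy1 were Dlx2 (0.882 and 0.894) and Celf2 (0.844 and 0.740). Rag2 was most like Zfp35 (0.858 and 0.859) and Nfat5 (0.835 and 0.852). Rag1 was most like Lmx1a (0.942 and 0.928) and Chia1 (0.920 and 0.90).

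Some of these pairs lay close together on the array by probe number: Chia1 was 25 and Lmx1a 44 numbers from Rag1, and Rora was 21 from Bcl11b. Over the 10 lines without T-cell lymphoma, the median r with the probes within 100 numbers was 0.262 for Rag1 and 0.516 for Bcl11b, against -0.08 and 0.143 over all probes. The part of array position in these likenesses was not tested. Lat and Zap70, 41 numbers apart, had r = 0.871 with each other over the 10 lines without T-cell lymphoma and 0.825 with the arrays centred. Their median r with the probes within 100 numbers was 0.067 and 0.141, and over all probes 0.220 and 0.293. The part of array position was not tested for this pair either. Among the 36 pairs of the 9 genes the median r was 0.509 over 11 lines and 0.005 over the 10 lines without T-cell lymphoma. The 36 pairs went both ways over those 10 lines, from -0.77 to 0.871. The 6 pairs among Cd3g, Lat, Zap70 and Bcl11b, picked after their values were seen, lay between 0.687 and 0.871 there, and between 0.461 and 0.825 with the arrays centred.

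Other genes of T-cell receptor signalling were less uniform. Of all features 2.22% were called higher in the T-cell lymphoma line than in the other 10 lines and 2.36% lower. The median difference of the 40 tested genes on this list was 0.62, beside 0.12 over all features. Of these 40 genes 5 were called higher and 0 lower. They were Ptprc, which encodes the phosphatase CD45 (5.64 ± 0.79), Lcp2, the adaptor SLP-76 that joins Lat (3.31 ± 0.46), Vav1, an exchange factor (2.46 ± 0.41), the adaptor gene Grb2 (1.95 ± 0.38) and Nfatc2, a transcription factor activated by calcium signals (1.95 ± 0.35). Lcp2 was as high in another blood-cell line, since it read 1.56 in T-cell lymphoma and 1.64 in the macrophage line. Vav1 read 2.04 in T-cell lymphoma and 1.595 in the macrophage line, and Nfatc2 read 1.39 in T-cell lymphoma and 1.05 in the myeloma line. Fyn, a kinase that acts upstream, read -0.30 against a mean of -0.30. The coreceptor gene Cd4, picked after its value was seen, differed by 0.35 ± 0.45. Against the myeloma line 3 of the 40 genes were called higher (Ptprc, Lcp2 and Grb2) and 0 lower. There 0.539% of all features were called higher and 0.903% lower. Against the macrophage line 0 genes were called higher and 1 lower, the costimulatory receptor gene Cd28, which read -1.20 in T-cell lymphoma and 2.97 in the macrophage line. In that comparison 0.97% of all features were called higher and 1.05% lower. The calls of Grb2, Vav1 and Nfatc2 ended with quantile normalization and without any of the mammary tumor or myeloma arrays, and 2 or 3 genes of the list were called in those fits. Ptprc and Lcp2 were called in 13 of 13 alternatives. With the array number as a block 9 genes of the list were called higher and 0 lower. Over all features that block raised the calls in either direction from 340 to 960. Cd3e, Cd3d, Cd247, Lck and Tcf7 had no tested probe.

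Of 36 genes of thymocyte development 2 were called higher and 0 lower: Ikzf1, the lymphoid factor Ikaros (3.30 ± 0.55), and Rora (2.68 ± 0.55). Over all features 2.22% were called higher and 2.36% lower. The median difference of the 36 genes was 0.15. Gata3, a T-lineage transcription factor, differed by 0.28 ± 0.34, and the receptor gene Notch1 by -1.65 ± 0.41 (limma adjusted p = 0.0717). The calls of Ikzf1 and Rora ended with quantile normalization and without either myeloma array, and that of Rora also without either mammary tumor array. The Rora call ended in 6 of 13 alternatives in all. Ikzf1 read 1.42 in T-cell lymphoma and 0.56 in the myeloma line. Against the myeloma line 0 of the 36 genes were called in either direction, and against the macrophage line 0 as well. The median differences there were -0.005 and -0.041. Among 14 genes of V(D)J recombination and end joining 0 were called by limma in either direction, with 3 higher and 1 lower at an unadjusted p under 0.05. The repair genes Xrcc5, Xrcc6 and Prkdc differed by 0.10 ± 0.37, 0.11 ± 0.35 and 0.01 ± 0.35. Of 17 partners and targets of Lef1 1 was called, the cyclin gene Ccnd1, which was lower (-4.37 ± 0.59, limma adjusted p = 0.0172; 0.0704 with quantile normalization), and the median difference was -0.43. With the array number as a block 4 of these 17 genes were called lower and 1 higher. Among the 36 genes of thymocyte development 3 were then called higher and 3 lower. That block also raised the calls over all features, in either direction, from 340 to 960. Whether these lists exceeded the share over all features in that fit was not tested.

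The T-cell lymphoma array was then set against marker lists of other cell types. Against the other 10 lines, 2.22% of all features were called higher and 2.36% lower. Of 9 tested pan-leukocyte genes 5 were called higher, among them Coro1a (4.88 ± 0.48), and 8 read above the pool. Against the macrophage line 0 of these genes were called higher and 1 lower (Plek), with a median difference of -1.24. The mean log2 ratio of this list was 1.69 in the macrophage line and 0.63 in the T-cell lymphoma line. Of 12 fibroblast and mesenchymal genes 6 were called lower and 0 higher, and 1 read above the pool. Against the macrophage line 0 of these genes were called in either direction, with a median difference of -0.002. Macrophage genes were below the pool for 12 of 12, from -4.37 to -0.42, with 1 called lower (Cd68). Of 17 B and plasma cell genes 5 read above the pool, 0 were called higher and 1 was called lower (Sdc1). At an unadjusted p under 0.05 in the limma fit 1 was higher and 2 were lower. Over all features 1740 of 7423 had such a p against the other 10 lines, in either direction. Against the myeloma line 5 of the 17 were called lower, where 0.903% of all features were called lower. Of 5 natural killer and cytotoxic genes 0 were called by limma, with 1 higher at an unadjusted p under 0.05. In the myeloma line the B and plasma cell list had a mean log2 ratio of 1.25, the highest of the lines other than T-cell lymphoma.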

How the data were processed

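RNA of 11 mouse cell lines was set against 1 reference pool on 14 two-colour arrays. The deposited table holds a log ratio for each spot, read here as log2. How the authors corrected, normalized or filtered the spots was not given in those sources that were used, nor were base, direction and centring. Taken as line over pool on the log2 scale, unlogged ratios averaged over lines had a median of 1.00, against 1.20 with the sign turned; for the tenth of features that varied most it was 0.923 against 3.11. Read as natural logs of line over pool, these medians were 1.07 and 1.18, so they do not settle the base. Base 2 was assumed, and every fold and share rests on it. Arrays of different lines correlated across probes at r between -0.150 and 0.499, so some resembled each other more than the arrays of the fibroblast pair did (0.384). In each paired line 1 array was labelled #2, and the unmarked one was taken as array 1. The difference of array 1 minus array 2 correlated between the paired lines (r = 0.539, 0.381 and 0.333). Values with this number as a block are therefore given where they change a call. Single arrays carry no number either and enter that block as array 1.

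The 80 Gapdh spots were averaged, which left 7601 features, of which 7423 had values in every line and were tested. Symbols came from the platform annotation (6835 probes with 1 symbol, 4 with several), updated through gene identifiers to RefSeq (GRCm38.p6). limma 3.58.1 in R 4.3.3 fitted 1 coefficient per line over all arrays (3 residual and 3.75 prior degrees of freedom), so single arrays take their spread from the pairs, and the number of arrays limits the precision. Scripts were tested on simulated data, and figures were drawn with matplotlib 3.10.9. The 9 genes and all lists were chosen with earlier results of these data known. All 9 genes were named, with every list gene called in the T-cell lymphoma line against the other 10 lines, a fixed set of list genes where tested, and the 2 closest in pattern to each of the 9. Neighbouring lines were said to differ where the difference exceeded 2 standard errors. Alternatives were array centring, quantile normalization, complete probes, image run or replicate number as a block, another moderation, removal of the trend along the probe number (loess, span 0.3), and leaving out each array of the pairs. The T-cell lymphoma line has 1 array and cannot be left out.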

Additional observations from a re-analysis of the deposited data

How the results depend on the processing

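Against the other 10 lines, Cd3g, Zap70, Lat, Bcl11b and Lef1 were called in all 13 other settings, and of the 117 values of the 9 genes in that comparison 1 turned its sign, Rag2 at -0.0456 with the image run as a random block. Without each paired array in turn the count was 6 (lowest 6, highest 6), though without either myeloma array Dntt passed and Thy1 did not. With quantile normalization the count was 1 against the myeloma line and 1 against the macrophage line, and with a trend and robust moderation it was again 1 and 1. Without single arrays these counts ran from 0 to 5 and from 1 to 6. For the other 10 lines the 3 calls, all of Lef1, became 10 with the replicate block, 0 with trend and robust moderation and 6 against 9 lines without T-cell lymphoma, and 1 to 5 without single arrays. Over all features the calls were 340 against the other lines, 107 against myeloma and 150 against macrophage. Quantile normalization gave 74, 19 and 11, and the replicate block 960, 219 and 562. Without single arrays these calls over all features ran from 108 to 762, 0 to 180 and 15 to 311.

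Turning the sign of every ratio exchanges higher and lower calls and leaves their sizes and p-values, so those fits were not run again, but it changes the shares. Removal of the probe-number trend and the 9-line mean were chosen after seeing the data. The cause of these shifts was not tested. A line with 1 array has no spread of its own, which limits every comparison of the T-cell lymphoma line.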
